A study of Cricetiscus sungorus with 216 samples.

Results

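In the mediobasal hypothalamus (MBH) of Djungarian hamsters, transcripts of Chrna3, Sugct, Dhrs7c and Prr32 were scarce in long photoperiod (LP), several times higher after 4 to 12 weeks in short photoperiod (SP) and lower again in the later weeks of SP. The 4 genes, of 20156 gene symbols in the MBH table, were chosen by their MBH group means, which peak between 4 and 12 weeks of SP. That rise and fall is therefore given as a description with no test, and tests were kept for values that the choice did not use directly. These are the levels of the 4 genes in 3 other tissues, the genes of the same pathways in the MBH, and the way the 4 genes vary between hamsters of the same week. The last of these comes from the same libraries as the means.

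Djungarian hamsters switch to a winter state in short days and return to the summer state after many weeks without any change in day length. The MBH holds the arcuate and ventromedial nuclei, the tanycytes that line the third ventricle and, at its lower edge, the pars tuberalis, whose thyrotropin output follows day length. Nicotinic acetylcholine receptors are ion channels built from 5 subunits, and the alpha3 subunit encoded by Chrna3 binds acetylcholine, most often in channels that also hold the beta4 subunit. Sugct encodes a mitochondrial transferase that activates glutarate, a product of lysine breakdown, by attaching coenzyme A. Dhrs7c encodes a short-chain dehydrogenase that is best known from the sarcoplasmic reticulum of striated muscle and acts on retinol. Prr32 encodes a proline-rich protein whose role is little known.

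Male Djungarian hamsters from a colony aged 3 to 8 months were kept in LP (16 hours of light and 8 of dark, labelled LD) or moved to SP (8 hours of light and 16 of dark, labelled SD). LP held 6 hamsters, and SP of 4, 8, 12, 16, 20, 24, 28 or 32 weeks was given to 6 more for each duration, all untreated apart from day length. The MBH, the dorsomedial hypothalamus (DMH) and the paraventricular nucleus (PVN) were taken as bilateral 1 mm punches, together with the pituitary gland, and their RNA was sequenced as cDNA on the nanopore platform. Punches hold mixed cells, so fewer cells of a type and less RNA per cell cannot be told apart.

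Levels are given as CPM (read counts scaled to a common library size) after TMM scaling. The MBH libraries held between 5996 and 13208361 counts with a median of 1422834, and 1 of them, from 20 weeks of SP, was under 10000 counts. The totals ran from 149289 to 9084072 in the DMH, from 159 to 998245 in the PVN and from 29219 to 523544 in the pituitary gland. A single symbol, Gm32262, took 8.33% to 65.7% of the counts of an MBH library and 13.5% to 69.1% in the DMH. In the MBH this share was 17.2% to 65.7% in LP and 9.27% to 47.8% at 4 to 12 weeks. The totals thus overstate the depth left for other genes, by an amount that differs between libraries. Chrna3 had 892 counts over the 54 MBH libraries and was read in 48 of them, Dhrs7c had 235 counts in 35 libraries and Prr32 was read in 37 libraries. Sugct is listed as 3 isoforms, of which the most abundant had 354 counts, and in 26 of the 45 libraries with Sugct counts the top isoforms held equal values. Its summed CPM is therefore larger than its reads, by close to a factor of 2, and its intervals below use the most abundant isoform only.

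**Figure D1:**
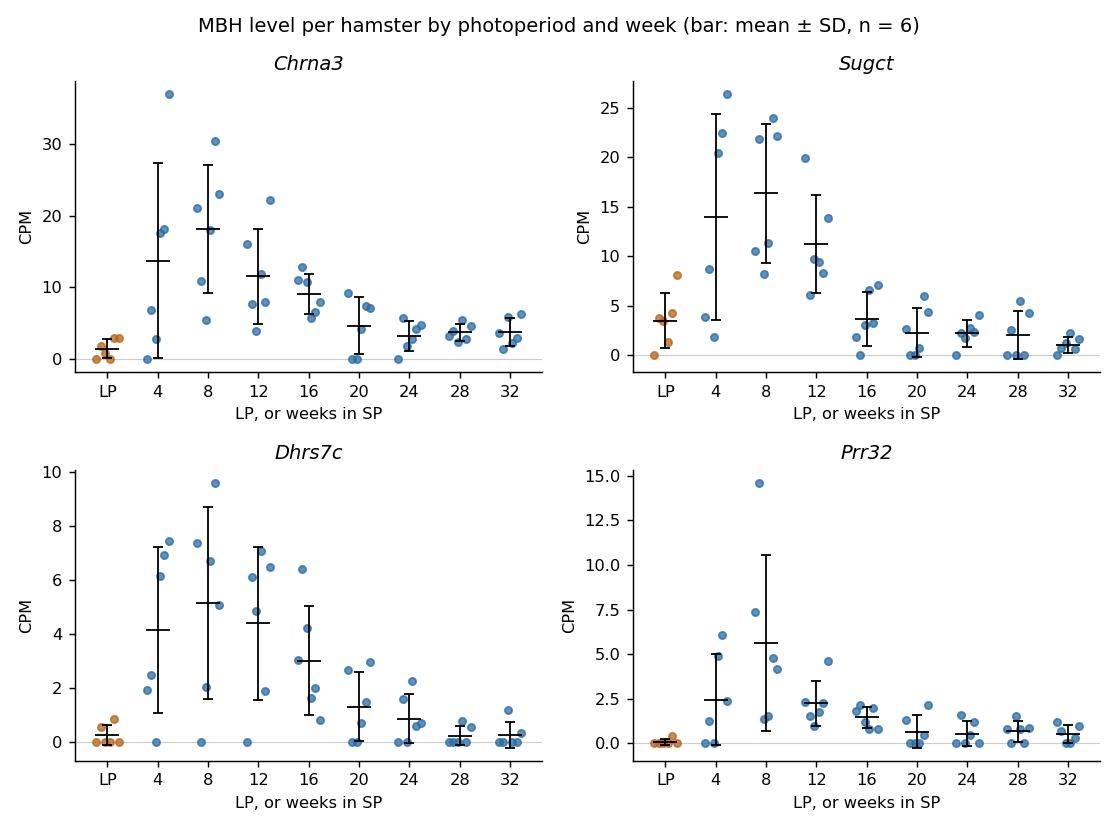
CPM of Chrna3, Sugct, Dhrs7c and Prr32 in the MBH of each hamster (points) in LP and after 4 to 32 weeks of SP, with the mean and SD of 6 hamsters as bars. All 4 means are highest at 8 weeks (18.2, 16.4, 5.14 and 5.64 CPM), and hamsters of the same week spread widely.

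Chrna3, the receptor subunit, had the most reads of the 4 genes. In LP it lay between 0 and 2.98 CPM with a median of 1.36, and 2 of the 6 hamsters had no count. At 4 weeks of SP the lowest hamster was at 0, the median at 12.2 and the highest at 37.03 CPM. At 8 weeks the range was 5.46 to 30.4 CPM with a median of 19.6. All 6 hamsters at 8 weeks were thus above every LP hamster, and the same held at 12 weeks (3.88 to 22.2 CPM, median 9.85) and at 16 weeks (5.73 to 12.8 CPM, median 9.36). At 20 weeks Chrna3 ran from 0 to 9.26 CPM with a median of 5.63. From 24 to 32 weeks the 18 hamsters lay between 0 and 6.22 CPM with a median of 3.42, and 10 of them still exceeded the highest LP hamster. Fitted over all 9 groups, Chrna3 was higher at 4 to 12 weeks than in LP by 3.06 on the log2 scale (SE 0.55), and 24 to 32 weeks differed from 4 to 12 weeks by -1.95 (SE 0.32).

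Ordered by mean, Chrna3 was highest at 8 weeks (18.2 CPM), followed by 4, 12, 16, 20, 32, 28 and 24 weeks and then LP (1.43 CPM). Neighbours in this order were apart by more than the smaller of their SDs only between 16 and 20 weeks (9.14 and 4.66 CPM) and between 24 weeks and LP (3.19 and 1.43 CPM). Pooling reads, 20 counts in LP gave 1.90 CPM (95% Poisson interval 1.16 to 2.94) and 589 counts at 4 to 12 weeks gave 18.7 CPM (17.2 to 20.3), a ratio of 9.84 (6.31 to 16.2). From 24 to 32 weeks the pooled level of 3.89 CPM was 2.05 times that of LP (1.27 to 3.46). These intervals cover counting error only, not the spread between hamsters. Of the 589 counts, 233 came from 1 hamster at 4 weeks, the highest at 37.03 CPM. The 18 hamsters at 4 to 12 weeks had a mean of 14.5 CPM and a median of 13.9 CPM.

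Sugct, the glutarate transferase, was the only one of the 4 that was read in 5 of the 6 LP hamsters. Its LP levels ran from 0 to 8.11 CPM with a median of 3.60. At 4 weeks of SP the range was 1.88 to 26.4 CPM with a median of 14.6, at 8 weeks 8.18 to 24.0 with a median of 16.6, and at 12 weeks 6.13 to 19.9 with a median of 9.58. The hamsters at 8 weeks all lay above LP, while 2 hamsters at 4 weeks and 1 at 12 weeks fell within the LP range. At 16 weeks it ran from 0 to 7.11 CPM with a median of 3.15, and from 16 to 32 weeks no hamster exceeded the highest LP hamster. At 32 weeks its range of 0 to 2.24 CPM, with a median of 0.946, was the lowest of all groups.

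The fitted difference of Sugct at 4 to 12 weeks against LP was 1.87 on the log2 scale (SE 0.57), and 24 to 32 weeks differed from 4 to 12 weeks by -2.86 (SE 0.40). In the order of means, 8, 4 and 12 weeks (16.4, 13.96 and 11.2 CPM) were followed by 16 weeks (3.63 CPM) with a gap larger than the smaller SD, and LP (3.48 CPM) came next. From 16 weeks through LP, 20, 24 and 28 weeks neighbours did not differ beyond this spread, and 32 weeks (1.06 CPM) lay below 28 weeks (2.05 CPM) by more than its own SD. Pooled reads of the most abundant isoform gave 2.09 CPM in LP (1.31 to 3.17), 8.04 CPM at 4 to 12 weeks (7.08 to 9.09) and 1.14 CPM at 24 to 32 weeks (0.811 to 1.56). The pooled ratio of the last stage to LP was 0.545 (0.316 to 0.966), and that of Chrna3 was 2.05. These intervals count reads and leave out the spread between hamsters. The hamsters at 24 to 32 weeks ran from 0 to 5.46 CPM of Sugct, within the LP range of 0 to 8.11 CPM. Fitted log2 differences of Sugct from LP were -0.54 (SE 0.68) at 24 weeks, -0.77 (SE 0.67) at 28 weeks and -1.66 (SE 0.71) at 32 weeks.

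Dhrs7c, the dehydrogenase, was close to its detection limit in LP, where 4 counts in 2 of the 6 hamsters gave a range of 0 to 0.852 CPM. At 4 weeks of SP it ran from 0 to 7.47 CPM with a median of 4.31. The range was 0 to 9.61 with a median of 5.90 at 8 weeks and 0 to 7.09 with a median of 5.49 at 12 weeks. Each of these weeks had 5 hamsters above every LP hamster and 1 with no count. Dhrs7c stayed above LP at 16 weeks in 5 of 6 hamsters (0.791 to 6.395 CPM, median 2.51), and at 28 weeks it was back within the LP range in all 6 (0 to 0.780 CPM). The fit gave 3.58 on the log2 scale at 4 to 12 weeks against LP (SE 0.79) and -3.36 for 24 to 32 weeks against 4 to 12 weeks (SE 0.49). Pooled, 168 counts at 4 to 12 weeks gave a ratio to LP of 14.04 with a counting interval of 5.38 to 52.1, and the ratio at 24 to 32 weeks was 1.38 (0.456 to 5.62).

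By mean, the order of Dhrs7c was 8, 12, 4, 16, 20, 24 and 32 weeks, LP and 28 weeks. Gaps beyond the smaller SD lay between 16 and 20 weeks (3.01 and 1.30 CPM) and between 24 and 32 weeks (0.854 and 0.251 CPM). Because Dhrs7c is best known from muscle, skeletal muscle markers were set beside it. All 15 listed markers had counts, and their summed level ran from 6.37 to 190 CPM in LP against 3.698 to 26.4 CPM at 4 to 12 weeks. The part of muscle in the level of Dhrs7c was not tested. Of the 15 muscle markers Tnnt3, a troponin of fast muscle, passed the test over the 9 groups (adjusted p = 0.0813, edgeR), a call lost in 9 of 14 alternatives (adjusted p up to 1.00 with DESeq2). Its mean was 20.0 ± 39.96 CPM in LP (SD, n = 6, with 1 hamster at 100.01 CPM) and 1.36 ± 3.88 CPM at 4 to 12 weeks (n = 18).

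Prr32, the proline-rich protein, had a single count in the 6 LP hamsters, in 1 animal at 0.426 CPM. At 4 weeks of SP it ran from 0 to 6.06 CPM with a median of 1.81, at 8 weeks from 1.36 to 14.6 with a median of 4.48 and at 12 weeks from 0.970 to 4.62 with a median of 2.01. All 6 hamsters were above every LP hamster at 8, 12 and 16 weeks (0.791 to 2.13 CPM at 16 weeks), and 4 of 6 at 4 weeks. In the late weeks 10 of the 18 hamsters at 24 to 32 weeks, with a range of 0 to 1.59 CPM and a median of 0.583, exceeded the LP maximum. The fitted difference at 4 to 12 weeks against LP was 4.25 on the log2 scale (SE 0.88) and that of 24 to 32 weeks against 4 to 12 weeks was -2.17 (SE 0.46). With 1 count in LP the pooled ratio of 30.4 at 4 to 12 weeks had a counting interval of 5.32 to 1214, so its size is poorly known.

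The order of Prr32 by mean was 8 weeks (5.64 CPM), 4, 12, 16, 28, 20, 24 and 32 weeks, and LP (0.0710 CPM). It was the only gene of the 4 in which 8 weeks stood apart from the next group by more than the smaller SD. That mean includes the hamster at 14.6 CPM, whose library was shallow, with 232745 counts.

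Set side by side, all 6 hamsters lay above every LP hamster at 8 weeks for Chrna3, Sugct and Prr32 and at 12 weeks for Chrna3 and Prr32, and for none of the 4 at 4 weeks. Over all 20156 genes such a separation was found for 0.00992% at 4 weeks, 0.0397% at 8 weeks and 0.0595% at 12 weeks. Since the genes were chosen on these means, nothing is read from these shares. In the late weeks, at 24 to 32 weeks, Sugct and Dhrs7c had 0 and 3 of 18 hamsters above the LP maximum, and Chrna3 and Prr32 had 10 each. That maximum was 8.11 CPM for Sugct, 2.98 for Chrna3, 0.852 for Dhrs7c and 0.426 for Prr32, the last from 1 count. The numbers of hamsters therefore do not rank the genes, and the share of all genes with such late levels was not counted.

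At 4 weeks replicates 4, 5 and 6 were above replicates 1, 2 and 3 for all 4 genes. For Prr32 the gap was narrow, with 2.38 CPM in replicate 6 and 1.24 CPM in replicate 2. Replicates 4, 5 and 6 held 17.6 to 37.03 CPM of Chrna3 and 20.5 to 26.4 CPM of Sugct, and replicates 1, 2 and 3 held 0 to 6.84 and 1.88 to 8.70 CPM. Replicate 1 had no count of Chrna3 or Prr32. After scaling 1 count was worth 1.92 CPM in this library, and its 8935 genes with counts were the fewest of the 4-week group. The arcuate markers Agrp, Npy and Pomc, 3 neuropeptide genes, together reached 32.3 and 43.3 CPM in replicates 2 and 3 but 310 CPM in replicate 1, against 142 to 588 CPM in the 6 LP hamsters. Over 4 to 12 weeks the 9 arcuate and ventromedial markers, all with counts, summed to between 42.3 and 435 CPM, and in LP to between 161.2 and 616 CPM. With the level of the 3 neuropeptide genes as a term in the fit, the log2 differences at 4 to 12 weeks were 3.26 (Chrna3), 2.15 (Sugct), 3.83 (Dhrs7c) and 4.57 (Prr32). Without that term they were 3.06, 1.87, 3.58 and 4.25. Leaving out replicate 1 of 4 weeks and the library under 10000 counts gave 3.16, 1.94, 3.66 and 4.36. Both of these settings, the added term and the libraries left out, were chosen after seeing the data. The part of the arcuate content of a punch in the levels of the 4 genes was not tested.

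Some markers of other cell types moved with day length in the same libraries. The 10 pars tuberalis and pituitary markers in the table, all with counts, summed to between 768 and 2345 CPM in LP and to between 40.4 and 558 CPM at 4 to 12 weeks. The sums did not overlap, and their direction was opposite to that of the 4 genes. Cga and Tshb weighed heavily in them, with LP means of 858 and 438 CPM. Of the 10 markers, 4 were called lower at 4 to 12 weeks than in LP and 2 had a positive log2 difference. Tshb, the thyrotropin beta subunit, and Cga, the alpha subunit of the pituitary glycoprotein hormones, passed the test over the 9 groups (adjusted p = 3.55e-12 and 0.0439, edgeR), as did Prl, prolactin (adjusted p = 0.000254, edgeR), which was read in only 12 libraries. Prl had similar means in LP (2.79 ± 6.32 CPM, SD, n = 6) and at 4 to 12 weeks (1.97 ± 7.09 CPM, n = 18). Its highest level, 533 CPM, was in 1 hamster at 28 weeks, where the median was 0. The call of Cga was lost in 6 of 14 alternatives, with an adjusted p of up to 0.417 without replicate 1, and that of Prl without replicate 2 (adjusted p = 0.670, edgeR). The 10 tanycyte markers summed to 116 to 312 CPM in LP and 29.2 to 239 CPM at 4 to 12 weeks. Their part in the levels of Chrna3, Sugct, Dhrs7c and Prr32 was not tested. The 8 ependymal, 6 neuron, 7 glial, 5 blood and 7 medial habenula markers overlapped between LP and 4 to 12 weeks, and the medial habenula, a place of strong Chrna3 expression above the thalamus, had marker sums of 41.7 to 116 CPM in LP and 22.5 to 106 CPM at 4 to 12 weeks.

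No listed pathway partner of the 4 genes passed the test. Of 20156 genes in the MBH, 89 (0.442%) passed the edgeR quasi-likelihood test over the 9 groups at an adjusted p below 0.1, and 0 of the 12 other listed nicotinic receptor subunits were among them, with 3 at an unadjusted p below 0.05. In the same test 1615 of all 20156 genes had an unadjusted p below 0.05. In the contrast of 4 to 12 weeks with LP, 0.0298% of all genes were called higher and 0.193% lower, and in that of 24 to 32 weeks with 4 to 12 weeks 0.0298% were called higher and 0.0595% lower. None of the 12 subunits was called in either contrast. Their median log2 difference at 4 to 12 weeks against LP was 0.47, and all genes had a median of 0.00. Over the 10 subunits with counts in both stages the median was also 0.47.

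Chrnb4, the beta4 subunit that joins alpha3 and whose gene lies next to Chrna3 in mammalian genomes, was the only subunit of the list with an unadjusted p below 0.05 in the early contrast. Of all 20156 genes, 1119 had such a p in that contrast. Chrnb4 ran from 0 to 6.95 CPM in LP with a median of 1.95 and from 0 to 21.8 CPM at 4 to 12 weeks with a median of 7.21, and 10 of 18 hamsters exceeded the highest LP hamster. The log2 difference was 1.72 (SE 0.64) with an unadjusted p of 0.00952 and an adjusted p of 0.542 (edgeR), so it missed the threshold. At 24 to 32 weeks Chrnb4 had a mean of 4.92 ± 3.66 CPM (SD, n = 18), with 6 of 18 hamsters above the highest LP hamster. Chrna5, the third subunit of this gene cluster, was read in 12 of 54 libraries and had a log2 difference of -0.42 (SE 0.98).

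The neuronal subunits Chrna4 and Chrna7 gave 1.27 (SE 1.01) and 0.22 (SE 0.85), and the beta2 subunit Chrnb2 gave -0.86 (SE 0.71), each with an adjusted p of 1.00. Of the 14 genes of acetylcholine handling and receptor assembly, 0 passed over the 9 groups or in either contrast, and 3 had an unadjusted p below 0.05 over the groups, as did 1615 of all 20156 genes. The 14 genes had a median log2 difference of -0.26 at 4 to 12 weeks. Chat, the enzyme that makes acetylcholine, was read in 4 of 54 libraries and not at all at 4 to 12 weeks, so its level was below what this depth resolves in most libraries.

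The same held around Sugct. Of the 20 genes of lysine and glutarate breakdown, 0 passed over the 9 groups, where 0 also had an unadjusted p below 0.05, and 0 were called in either contrast. Their median log2 difference at 4 to 12 weeks was -0.10. Gcdh, the dehydrogenase that uses the glutaryl-CoA made by Sugct, gave 0.30 (SE 0.49), Aldh7a1, an earlier enzyme of lysine breakdown, 0.03 (SE 0.25), and Aass, which takes the first step, -0.42 (SE 0.68). Hykk, a hydroxylysine kinase whose gene is a neighbour of Chrna3 and Chrna5, was at 0.284 ± 0.696 CPM in LP and 1.24 ± 1.82 CPM at 4 to 12 weeks, with a log2 difference of 1.36 (SE 0.86) and an adjusted p of 0.934. It was named after its values were seen. Among the 21 short-chain and retinol dehydrogenases measured 0 passed any of these tests at the adjusted threshold, with a median log2 difference of -0.01, and the near relatives of Dhrs7c gave -0.01 (Dhrs7, SE 0.22) and -0.59 (Dhrs7b, SE 0.42).

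**Figure D2:**
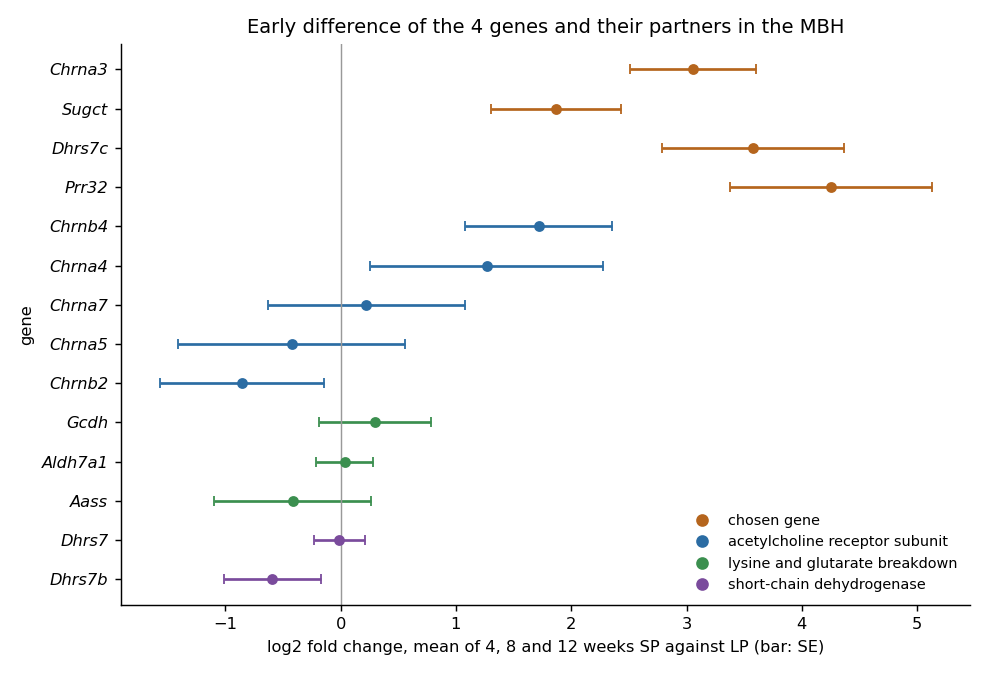
Log2 fold change in the MBH between the mean of 4, 8 and 12 weeks SP and LP for the 4 chosen genes and 10 partner genes, with the SE as bars (edgeR fit over 54 libraries). The chosen genes lie at 1.87 to 4.25 by selection, Chrnb4 lies at 1.72 and the other partners at -0.86 to 1.27.

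Outside the MBH the 4 genes had few reads, and none that was tested in the DMH, the PVN or the pituitary gland passed. In the DMH 1008 of 21821 genes (4.62%) passed over the 9 groups and 0 of the 4 did, also with DESeq2. An unadjusted p below 0.05 was found for 0 of the 4 and for 3201 of all 21821 genes. The adjusted p was 0.739 for Chrna3, 1.00 for Sugct, 0.644 for Dhrs7c and 0.816 for Prr32 (edgeR). Chrna3 had 21 counts in 14 of the 54 DMH libraries. It ran from 0 to 0.660 CPM in LP, and from 0 to 0.338 CPM at 4 to 12 weeks, with means of 0.1403 ± 0.259 CPM (SD, n = 6) and 0.0711 ± 0.116 CPM (n = 18). No DMH library at 4 to 12 weeks was above the highest LP library for Chrna3, and the difference in means had p = 0.429 in a two-sided exact permutation test over 134596 splits. Sugct, Dhrs7c and Prr32 were read in 8, 3 and 4 DMH libraries, and their exact permutation p lay between 0.653 and 0.804.

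Pooled over libraries, the DMH level of Chrna3 at 4 to 12 weeks was 0.123 CPM (95% Poisson interval 0.0531 to 0.242), where the MBH of the same hamsters had 18.7 CPM. The tables were scaled apart, so levels in different tissues are set side by side and were not tested against each other. Within the DMH the ratio of 4 to 12 weeks to LP for Chrna3 was 1.32 with a counting interval of 0.316 to 7.71, from 8 and 3 counts. The DMH libraries also held few reads of the markers used here: the 6 neuron markers summed to 0 in 2 of the 54 libraries, and the 6 arcuate and ventromedial markers in the DMH table had a median sum of 4.89 CPM and reached 14.8 CPM at most.

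In the PVN 3 of 18960 genes (0.0158%) passed over the 9 groups and 0 of the 4 did. Chrna3 had 24 counts in 17 of 54 PVN libraries, with 1.80 ± 3.00 CPM in LP (n = 6) and 1.88 ± 4.86 CPM at 4 to 12 weeks (n = 18), and the exact permutation p was 0.995. The nearly empty PVN library of 159 counts, in 108 genes, was replicate 1 of LP. It entered the LP means and the permutation tests of all 4 genes in the PVN as 0 CPM. The ratio of pooled reads at 4 to 12 weeks to LP was 0.635 with a counting interval of 0.170 to 2.88, from 8 and 4 counts. Sugct had no PVN count in LP, which allows up to 2.28 CPM (3 counts over the group), and 6 of the 18 hamsters at 4 to 12 weeks had counts, up to 30.98 CPM. Sugct is listed as 4 isoforms in the PVN, and in all 17 libraries with counts the top isoforms were equal, so its sum overstates the reads, and the most abundant isoform gave 1.93 CPM (0.832 to 3.80). Its adjusted p over the groups was 0.743 at an unadjusted p of 0.0307, and the exact permutation p of the early weeks against LP was 0.216. Dhrs7c and Prr32 had 2 counts each in the whole PVN.

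In the pituitary gland, where 2149 of 22482 genes (9.56%) passed over the 9 groups, Chrna3 had 1 count in 54 libraries, at 24 to 32 weeks, and an adjusted p of 0.970. With 0 counts in LP the limit for Chrna3 was 5.49 CPM and at 4 to 12 weeks it was 1.79 CPM. Sugct, Dhrs7c and Prr32 were not analysed here in the pituitary gland. Adjusted over the 9 permutation tests in the 3 tissues every p was 1.00. A p that misses the threshold at so few reads does not show that the levels were equal.

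The choice of the genes rested on group means and not on how hamsters of the same week differ, so this spread could be tested. After the mean of its group was subtracted from each log2 CPM value, hamsters with more Chrna3 than others of their week also had more of the other 3 genes. For Chrna3 and Sugct Pearson's r was 0.658 (p = 1e-05, the smallest that 100000 permutations within weeks can give, adjusted p = 6e-05 over 6 pairs) and Spearman's rho was 0.640 (permutation p = 1e-05, adjusted p = 3e-05). For Chrna3 and Dhrs7c r was 0.579 (permutation p = 0.00011, adjusted p = 0.00033) and rho was 0.702 (p = 1e-05, adjusted p = 3e-05), and for Chrna3 and Prr32 r was 0.581 (permutation p = 0.00045, adjusted p = 0.0009) and rho was 0.582 (p = 8e-05, adjusted p = 0.00016). These 3 pairs passed under every alternative tried, with r between 0.479 and 0.796. With the replicate number taken out together with the week, a setting added after seeing the data, their r was 0.538, 0.536 and 0.552 (permutation, adjusted p = 0.00098 each). The 54 hamsters were counted once each, and r without the 2 hamsters farthest from the median of the first gene was 0.636, 0.588 and 0.515.

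**Figure D3:**
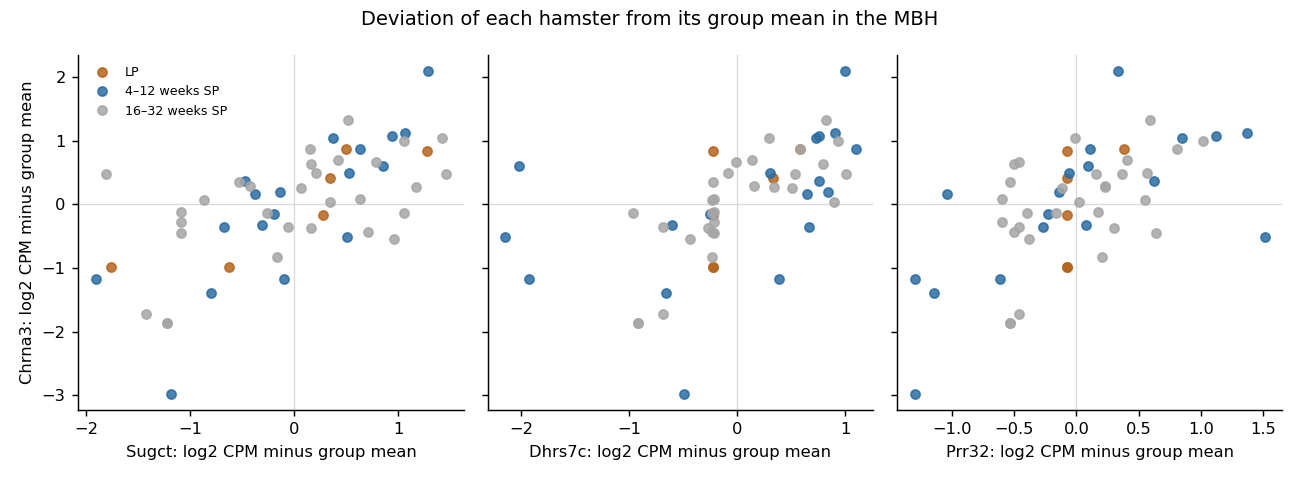
Log2 CPM of Chrna3 minus its group mean against the same for Sugct, Dhrs7c and Prr32 in the MBH, 1 point per hamster (n = 54), coloured by LP, 4 to 12 weeks and 16 to 32 weeks of SP. Points run from low in both genes to high in both, with Pearson's r of 0.658, 0.579 and 0.581.

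The pairs without Chrna3 were looser. Sugct and Prr32 gave r = 0.377 (permutation p = 0.0135, adjusted p = 0.0203) and rho = 0.351 (p = 0.0228, adjusted p = 0.0274), and r without the 2 farthest hamsters was 0.360. Its r kept an adjusted p below 0.1 under every alternative tried, but its rho did not with the library total taken out (adjusted permutation p = 0.152), with arcuate markers taken out (0.206) or without replicate 3 (0.229). Sugct and Dhrs7c gave r = 0.282 (permutation p = 0.0481, adjusted p = 0.0577) and rho = 0.306 (p = 0.0372, adjusted p = 0.0372), and r without the 2 farthest was 0.273. Dhrs7c and Prr32 gave r = 0.305 (permutation p = 0.0998, adjusted p = 0.0998) and rho = 0.423 (p = 0.00645, adjusted p = 0.00967), and without the 2 farthest r was 0.574. The calls on r of the last pairs did not hold in 8 of 14 alternatives for Sugct with Dhrs7c and in 11 of 14 for Dhrs7c with Prr32. With the arcuate markers taken out within weeks, a setting added after seeing the data, the 3 pairs with Chrna3 kept r of 0.620, 0.541 and 0.532. With the library total taken out, these were 0.551, 0.505 and 0.600.

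Over all 54 MBH libraries the 4 genes were among the closest to each other, which their choice by a shared course of means builds in. By Pearson's r of log2 CPM with 12039 genes read in at least 27 libraries, the 5 genes most like Chrna3 were Prr32 (0.777), Dhrs7c (0.741), Mipep (0.733), Sugct (0.718) and Cd44 (0.700). Mipep, a mitochondrial processing peptidase, and Cd44, a hyaluronan receptor at the cell surface, were also closest to other genes of the 4: Mipep to Sugct (0.650) and Cd44 to Prr32 (0.614). Genes picked for likeness to the 4 share their early peak through that choice, so their levels are a description only. Cd44 ran from 4.03 to 37.2 CPM in LP, and all 6 hamsters at 8 weeks (51.8 to 96.1 CPM) and at 12 weeks (60.7 to 101 CPM) were above that range. Over all 20156 genes such a separation was found for 0.0397% at 8 weeks and 0.0595% at 12 weeks, and nothing is read from these shares. At 24 to 32 weeks Cd44 had come down to a median of 35.7 CPM.

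The rest of the closest genes were led by Chrna3 as well. Sugct was closest to Chrna3 (0.718), Mipep, Prr32 (0.648), Cited4 (0.629), a transcriptional coactivator, and Dhrs7c (0.611). Dhrs7c was closest to Chrna3 (0.741), Cst3 (0.675), the secreted protease inhibitor cystatin C, the small heat shock genes Hspb2 (0.672) and Hspb1 (0.652), and Chrnb4 (0.629), the beta4 receptor subunit. Prr32 was closest to Chrna3 (0.777), Sugct (0.648), Dhrs7c (0.616), Cd44 and Cox4i2 (0.610), a variant subunit of cytochrome c oxidase. All of these values share the same libraries. The log2 library total itself had r of 0.344 with Chrna3, 0.345 with Sugct, 0.218 with Dhrs7c and 0.0853 with Prr32. Hspb2 went from a mean of 0.353 ± 0.460 CPM in LP to 1.87 ± 1.68 CPM at 4 to 12 weeks (n = 18) and to no count in the 6 hamsters at 32 weeks. Cst3 went from 521 ± 159 to 715 ± 162.5 CPM over the same stages.

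**Figure D4:**
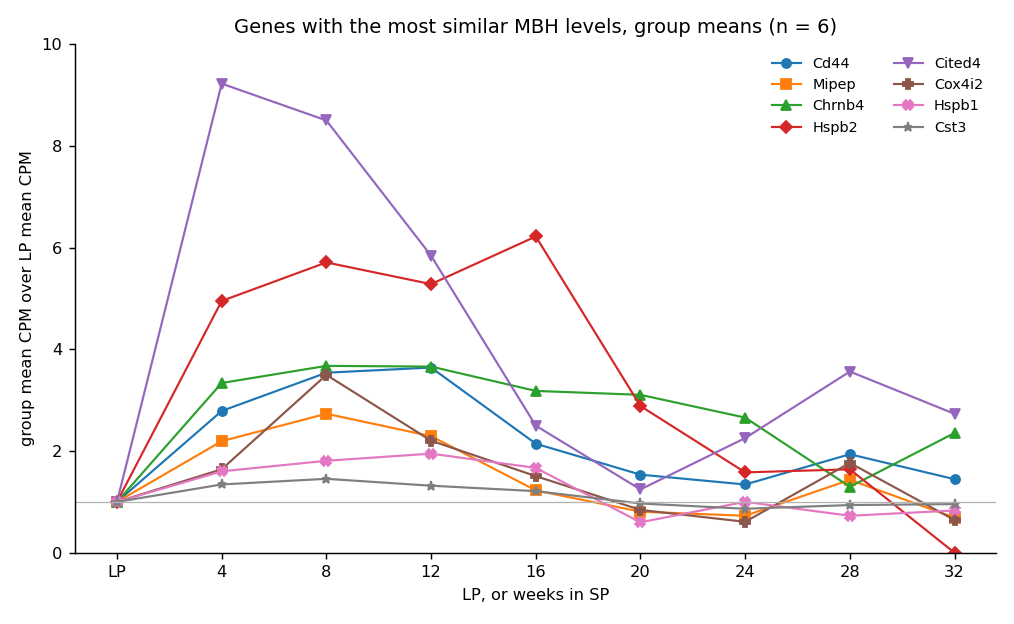
Group mean CPM of the 8 genes outside the 4 that were most like them, divided by the LP mean, in LP and after 4 to 32 weeks of SP (n = 6 a point). Each gene is above its LP mean at 4, 8 and 12 weeks, by up to 9.22 times for Cited4 and at most 1.45 times for Cst3, and Hspb2 is at 0 at 32 weeks. The genes were picked for likeness to the 4, so an early rise is built in.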

How the data were processed

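RNA of the MBH, DMH, PVN and pituitary gland of the same 54 hamsters was sequenced on the nanopore platform (216 libraries). Per the study's methods, reads were base-called with guppy, trimmed with Porechop, filtered with Filtlong, aligned with minimap2 to the mouse genome GRCm39 and quantified with Salmon, with low transcripts removed, of which Salmon and minimap2 also stand in the submitters' processing notes. The labels name a PCR-cDNA kit for the pituitary gland and the methods a direct cDNA kit. The authors deposited expected counts per isoform, 1 table per tissue, and these estimated counts need not be whole. Hamster reads were thus counted on a mouse reference, and genes that differ between the species may be undercounted. The methods state that reference for all tissues, but the PVN table lists transcript identifiers that the 3 other tables do not hold, so its reference is uncertain and PVN levels carry that limit.

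Isoforms were summed per gene symbol, rounded and scaled by TMM. Summing counts a read shared between isoforms more than once where the authors' file lists it under each. Each tissue was fitted alone with edgeR 4.0.16 in R 4.3.3 (quasi-likelihood test in its legacy form, 9 groups in 1 model, no filter), with Benjamini-Hochberg adjustment over all genes and a threshold of 0.1. SEs were derived from the F values. Stages of SP were compared as means of 4, 8 and 12 weeks and of 24, 28 and 32 weeks. Exact permutation tests, permutations within weeks and Poisson intervals (95%, with 3 counts as the limit of 0) were computed in Python 3.11.15 with numpy 2.4.6 and scipy 1.17.1, on log2 CPM with a prior count of 2 for correlations. Libraries of up to 13208361 counts set the levels of rare genes more closely than the shallow ones, and all hamsters weigh equally in means. The labels describe separate hamsters, and every library was mapped to its group by its label.

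The 4 genes, the pathway lists and the marker lists were chosen with earlier results of these data known. Named genes were the 4 genes, their common receptor subunits, Gcdh, Aass, Aldh7a1, Dhrs7 and Dhrs7b, any list gene that passed over the 9 groups in the MBH (at most 5 a list), and the 5 genes most like each of the 4. Alternatives were filterByExpr, DESeq2 1.42.0 (test and size factors), a replicate block, a threshold of 0.05, libraries under 10000 counts left out, each replicate left out, and settings added after seeing the data (arcuate markers as a term, replicate 1 of 4 weeks left out, and the replicate number taken out of the covariation). The most abundant isoform alone, the newer form of the quasi-likelihood fit and, in the MBH, Gm32262 left out of the library total were also run. The statistical steps were tested on simulated data. No gene sequences were used here.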

Additional observations from a re-analysis of the deposited data

Results flagged for a closer look

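Of the 36 groups of 6 hamsters that the 4 genes and 9 groups give in the MBH, 3 held a hamster whose gap to the nearest other exceeded Dixon's 95% critical value. Chance gives about 1 in 20 for normally spread values. Many of the values here are 0, so that rate does not apply and nothing is read from the number of flags. Dhrs7c was 1.18 CPM in replicate 3 at 32 weeks of SP, where it was read in only 2 of 6 hamsters. Prr32 was 0.426 CPM in replicate 5 of LP, which is its only LP count, so the gap was the whole range. Prr32 was also flagged at 4.62 CPM in replicate 6 at 12 weeks.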

How the results depend on the processing

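The fitted log2 differences of Chrna3, Sugct and Dhrs7c in the MBH stayed within the replicate spread under every alternative compared (14, 14 and 13). The log2 differences of the DESeq2 test were not among those compared. That of Prr32 at 4 to 12 weeks against LP ran from 3.90 to 5.32 with each replicate number left out. The count of MBH genes passing over the 9 groups (89) depended on the setting: it was 4 with filterByExpr, 12 with DESeq2, 22 with a replicate block, 43 at a threshold of 0.05 and 7 to 30 with each replicate number left out. Over all 15 alternatives it ran from 4 to 130, so 89 was not the upper end. None of the 4 genes passed in the DMH or PVN, nor Chrna3 in the pituitary gland, and no pathway list had a member called, in any alternative compared. Cga, Tnnt3 and Prl lost their calls in 6 of 14, 9 of 14 and 1 of 12 alternatives.

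For Sugct and Dhrs7c the adjusted p was above 0.1 with only 4 to 12 weeks (r = 0.326), the library total taken out (0.1401), arcuate markers taken out (0.202) or a replicate block (0.136), and r ran from 0.118 to 0.464 with each replicate number left out. For Dhrs7c and Prr32 this held without libraries under 10000 counts (0.288), with only 4 to 12 weeks (0.178), the library total taken out (0.283), DESeq2 size factors (0.297), arcuate markers taken out (0.224) or a replicate block (0.280), and r ran from 0.199 to 0.550. The cause was not tested.

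Replicate numbers named different hamsters in each week, and the labels tie no number to a litter, batch or day. Deviations from the week means had a median r of 0.0670 for pairs of libraries with the same number (31.5% over 0.1) and -0.00543 for those with different numbers (11.9% over 0.1), and 27 of 54 libraries had their highest mean r with their own of the 6 numbers, a hint from the data that libraries with the same number share something. Under the replicate block the 4 genes kept log2 differences of 3.01, 1.92, 3.57 and 4.35 at 4 to 12 weeks. The filter on low counts removed Dhrs7c and Prr32, so they have no value there, and the DMH and pituitary gland have no library under 10000 counts. Depth limits Dhrs7c and Prr32 most, with 4 counts and 1 count in LP.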
